A study of Mus musculus with 12 samples.

Results

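The effector T cell cytokines are the secreted proteins through which activated T cells act on other cells. IL-17 left aside, 10 of their genes were examined: Ifng, Csf2, Il2, Il4, Il13, Il5, Il21, Il22, Tnf and Lta. Every probe set that the platform annotation assigns to these genes was taken, which gave 12 of the 45101 probe sets on the array. Of the 12, 10 carried 1 gene symbol. The other two were shared: 1447917_x_at was annotated to both Ntan1 and Il2, and 1427624_s_at, the only probe set naming Il22, also to Iltifb, a near-identical neighbouring copy of Il22 in the mouse. Values of a shared probe set cannot be assigned to either gene.

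The series put RNA from regulatory T cells (Tregs), sorted by flow cytometry and taken fresh without treatment, on 12 Affymetrix mouse arrays. The 4 genotypes, with 3 arrays each, were the knockout of both genes (Ebi3 –/– Il10 –/– Treg, called DKO), the Il10 knockout (Il10 –/– Treg, Il10_KO), the Ebi3 knockout (Ebi3 –/– Treg, Ebi3_KO) and wild type (WT). Ebi3 is the gene of a protein chain found in IL-27 and IL-35, and Il10 that of IL-10. The replicate number in the labels equals the batch, so each of the 3 batches held 1 array of each genotype. The labels give no strain, age, sex, allele or sorting gate, and do not say whether replicates came from separate animals, so the p-values measure the spread between these arrays, which may be technical.

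Tregs restrain other T cells, and Foxp3, the factor that defines them, holds back several effector cytokine genes, among them Il2 and Ifng. Helper T cells are sorted by the cytokines they make: interferon gamma and lymphotoxin mark type 1 cells, IL-4, IL-5 and IL-13 type 2 cells, IL-21 the helpers of B cells, and IL-22 and GM-CSF cells of the type 17 and related programs. Most of these genes are nearly silent in resting cells and are switched on within hours of a T cell receptor signal through NFAT and AP-1 factors.

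Foxp3 read between 4945.3 and 7955.0 on the 12 arrays, far over the background described below. Ebi3 separated the genotypes as labelled, at 37.1 ± 30.9 in DKO and 24.0 ± 18.8 in Ebi3_KO, against 1673.1 ± 534.7 in Il10_KO and 1537.6 ± 327.8 in WT (signal, SD, n = 3 each). Il10 did not: it read 1969.0 ± 847.3 in DKO, 1680.7 ± 566.3 in Il10_KO, 1453.4 ± 906.2 in Ebi3_KO and 1202.7 ± 1511.8 in WT. The labels do not say which part of Il10 is missing, so these values are no check of the Il10 labels. Batch 3 stood apart from the other two: its summed signal of 8 myeloid markers was 24823.8 to 48871.8, against 3345.8 to 6700.6 in batch 2 and 3525.4 to 6097.5 in batch 1. WT replicate 1 also stood apart, with a summed signal of 54063.7 over 19 immediate-early genes, a list chosen after the data were seen, against 102250.8 to 198105.2 on the other arrays. Results are therefore given within batches, and the main ones also without these arrays.

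Signals are MAS5 values scaled by the authors to the same trimmed mean on each array, and arrays are compared probe set by probe set, since levels of different probe sets cannot be set against each other. No detection calls were used. As a measure of background, 96 probe sets of 61 genes restricted to non-immune tissues were read on each array, and a cytokine was called above background where it exceeded their 95th percentile, which lay between 216.7 and 316.5. The median of that panel was 16.35 to 30.7.

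Ifng, Tnf, Lta and the probe set shared by Ntan1 and Il2 were above background on 12 of 12 arrays. The Il22 and Iltifb probe set was above it on 1 DKO, 2 Il10_KO, 1 Ebi3_KO and 0 WT arrays. The probe set of Il2 alone was above it on 1 array, Ebi3_KO replicate 2. Csf2, Il4, Il13, Il5 and both probe sets of Il21 were above it on 0 of 12. With the second highest panel value as the ceiling instead, Tnf was above it on 0 arrays, Lta on 8 and Ifng on 11. Of the 12 probe sets, 9 passed the filter on low values, which asked for the 40th percentile of the array on at least 3 arrays. Csf2, Il4 and the Il22 and Iltifb probe set reached that percentile on 2 Ebi3_KO arrays and 1 WT array each, and on more of the arrays without Il10.

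**Figure D1:**
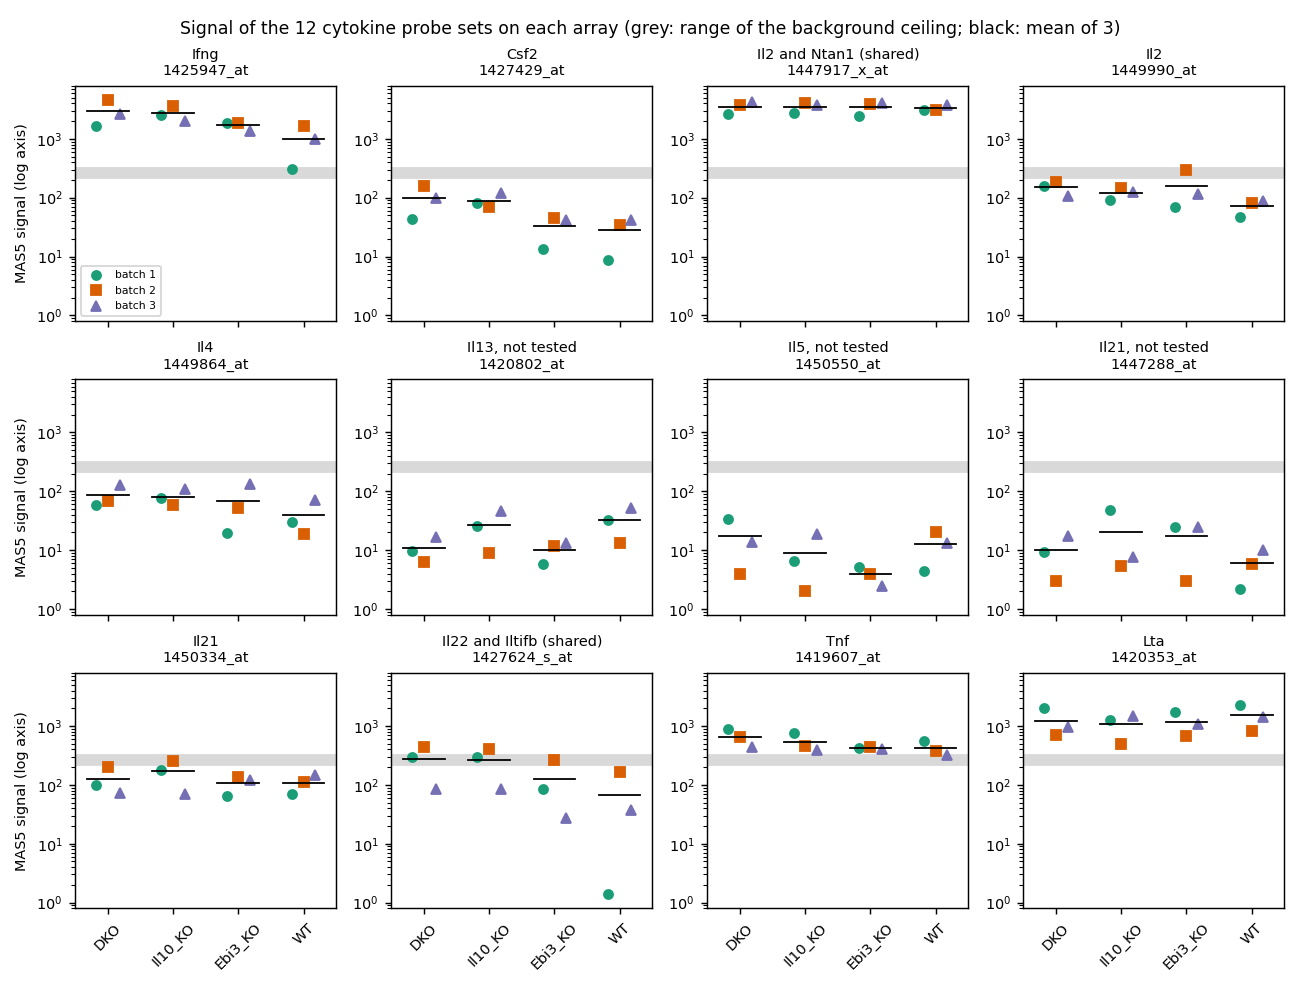
MAS5 signal (log axis) of the 12 probe sets on each array, by genotype, with batches 1, 2 and 3 as circles, squares and triangles, a black line at the mean of 3 arrays and a grey band over the range of the background ceiling (216.7 to 316.5). Ifng, Tnf, Lta and the probe set shared by Ntan1 and Il2 lie above the band or at its upper edge on every array, and Csf2, Il4, Il13, Il5 and Il21 lie within or below it.

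Ifng, the gene of interferon gamma, the main activator of macrophages, had its highest signals in the genotypes without Il10. It read 1672.1, 4640.4 and 2631.4 on the DKO arrays of batches 1, 2 and 3 and 2512.8, 3589.1 and 2048.0 on the Il10_KO arrays. It read 1895.6, 1869.5 and 1351.2 on the Ebi3_KO arrays and 307.3, 1666.6 and 1009.4 on the WT arrays. WT was the lowest of the 4 genotypes in each batch, and DKO and Il10_KO did not overlap with WT. In batch 1 the DKO array (1672.1) lay below the Ebi3_KO array (1895.6). Means were 2981.3 ± 1515 in DKO, 2716.6 ± 791 in Il10_KO, 1705.4 ± 307 in Ebi3_KO and 994.4 ± 680 in WT (SD, n = 3 each). In that order DKO and Il10_KO differed by less than their spread, and the ranges of Ebi3_KO and WT overlapped.

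Csf2 encodes GM-CSF, a growth and activating factor for myeloid cells, and read under the background ceiling on every array. It read 43.4, 155.8 and 97.2 on the DKO arrays and 80.3, 68.2 and 117.9 on the Il10_KO arrays. It read 13.6, 44.8 and 41.0 on the Ebi3_KO arrays and 8.8, 34.1 and 41.7 on the WT arrays. Within each batch both arrays without Il10 lay above both arrays with it. Over all 12 arrays the groups with and without Il10 touched only at DKO replicate 1 (43.4) and Ebi3_KO replicate 2 (44.8).

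The probe set shared by Il22 and Iltifb, cytokines that act on epithelial cells, read 303.2, 432.4 and 85.5 on the DKO arrays and 302.6, 411.9 and 84.0 on the Il10_KO arrays. It read 86.3, 261.4 and 27.3 on the Ebi3_KO arrays and 1.4, 166.2 and 37.0 on the WT arrays. Within every batch both arrays without Il10 were above both others, and batch 3 was the lowest batch in DKO, Il10_KO and Ebi3_KO. The DKO and Il10_KO values lay close together in each batch, with log2 differences of 0.0027, 0.067 and 0.021 in batches 1, 2 and 3.

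Promoter sequences of the 3 genes whose probe sets had the average difference by Il10 genotype, given below, farthest from 0 are shown from the RefSeq table of build GRCm38.p6, from 250 bases before to 50 after the start that table uses, 5′ to 3′ on the strand of the gene. The window of Ifng lies at chr10:118440796-118441095 on the plus strand, that of Il22 at chr10:118204714-118205013 on the plus strand and that of Csf2 at chr11:54249850-54250149 on the minus strand. The RefSeq record of the Il22 gene spans chr10:118204584-118210047, so its window lies inside the record and holds no base before the record's first. Capitals mark GGAAA, the core of NFAT sites, and TATAAA, both searched on both strands.
Ifng: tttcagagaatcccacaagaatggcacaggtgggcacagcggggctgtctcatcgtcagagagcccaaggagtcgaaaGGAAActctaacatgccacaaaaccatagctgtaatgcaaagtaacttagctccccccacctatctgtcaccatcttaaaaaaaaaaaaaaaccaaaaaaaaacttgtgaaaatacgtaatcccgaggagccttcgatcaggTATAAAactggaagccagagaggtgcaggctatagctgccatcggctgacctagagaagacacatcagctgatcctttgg
Csf2: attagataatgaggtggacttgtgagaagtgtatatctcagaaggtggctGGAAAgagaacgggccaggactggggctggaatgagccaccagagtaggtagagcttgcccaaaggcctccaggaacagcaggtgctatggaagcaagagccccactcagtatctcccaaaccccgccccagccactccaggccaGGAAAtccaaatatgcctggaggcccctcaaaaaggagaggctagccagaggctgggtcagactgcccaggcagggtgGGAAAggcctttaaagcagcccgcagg
Il22: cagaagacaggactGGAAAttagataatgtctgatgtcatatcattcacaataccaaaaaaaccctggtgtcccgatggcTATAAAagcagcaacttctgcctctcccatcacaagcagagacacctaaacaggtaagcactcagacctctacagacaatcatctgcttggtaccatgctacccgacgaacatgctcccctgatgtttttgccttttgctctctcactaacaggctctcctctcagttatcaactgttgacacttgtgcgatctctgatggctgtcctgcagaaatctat
The Ifng window held GGAAA once and TATAAA once, the Csf2 window held GGAAA at 3 places and no TATAAA, and the Il22 window held each once. All 10 genes had an entry, with a second start for Il4. GGAAA was found in 11 of 11 member windows, against 61.3% of the 32851 promoters in the table. TATAAA was found in 6 of 11, against 13.6%, and the AP-1 motif TGANTCA in 0 of 11, against 7.81%. These matches describe the letters in the windows and say nothing of binding in these cells.

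Tnf encodes TNF, an inflammatory cytokine of many cell types. It read 885.0, 645.8 and 437.2 on the DKO arrays and 751.9, 457.7 and 392.0 on the Il10_KO arrays. It read 424.6, 444.0 and 409.0 on the Ebi3_KO arrays and 567.2, 374.4 and 319.3 on the WT arrays. DKO was the highest genotype in every batch, but the groups overlapped, since the DKO array of batch 3 (437.2) lay below the WT array of batch 1 (567.2).

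Lta, the gene of lymphotoxin alpha and the neighbour of Tnf on chromosome 17, read 2033.1, 715.4 and 951.5 on the DKO arrays and 1260.2, 487.8 and 1492.0 on the Il10_KO arrays. It read 1758.8, 682.1 and 1065.4 on the Ebi3_KO arrays and 2291.9, 820.6 and 1439.6 on the WT arrays. Its order followed the batch more than the genotype: batch 2 was lowest in all 4 genotypes, at 487.8 to 820.6, against 951.5 to 1492.0 in batch 3 and 1260.2 to 2291.9 in batch 1.

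Il2 encodes IL-2, the growth factor that Tregs consume and mostly do not make. The probe set of Il2 alone read 157.3, 186.6 and 107.8 on the DKO arrays and 92.1, 146.8 and 123.7 on the Il10_KO arrays. It read 70.5, 291.2 and 115.3 on the Ebi3_KO arrays and 47.2, 80.3 and 87.2 on the WT arrays. WT was lowest in each batch, and DKO and Il10_KO did not overlap with WT, although 11 of these 12 values lie under the background ceiling. The probe set shared with Ntan1, a gene of protein turnover, read 2416.7 to 4167.3 and showed no such order, with an average Il10 difference, defined below, of 0.039 ± 0.18 (log2, SE). Since the shared probe set cannot be assigned to Il2, it is no check of the probe set of Il2 alone.

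Il4 encodes IL-4, the cytokine that sets the type 2 program. It read 59.1, 67.8 and 128.9 on the DKO arrays and 76.8, 57.8 and 107.9 on the Il10_KO arrays. It read 19.6, 51.9 and 135.4 on the Ebi3_KO arrays and 30.6, 19.0 and 71.2 on the WT arrays. The highest array of each genotype was that of batch 3, where the summed signal of 5 basophil and mast cell markers was 1903.8 to 2398.2, against 178.4 to 291.7 in batch 2 and 171.8 to 282.6 in batch 1. Basophils and mast cells also make IL-4. Among these markers Ms4a2, a chain of the IgE receptor, read 616.0 to 819.8 in batch 3, against 2.3 to 25.7 in batch 2 and 5.0 to 47.8 in batch 1. Their part in the Il4 signal was not tested.

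The other type 2 cytokines and Il21 stayed near background. Il13, which drives mucus production, read 5.9 to 52.0 and Il5, the growth factor of eosinophils, 2.0 to 33.6; neither was tested. For Il13 the Ebi3_KO arrays read 5.9, 11.6 and 13.2 and the WT arrays 32.1, 13.4 and 52.0, all far under the background ceiling. No difference between genotypes is read from signals this low. For Il21, made by helpers of B cells, 1447288_at read 2.2 to 48.0 and was not tested. The other probe set of Il21, 1450334_at, read 100.7, 200.6 and 72.0 on the DKO arrays and 182.0, 253.4 and 71.2 on the Il10_KO arrays. It read 64.6, 133.8 and 121.5 on the Ebi3_KO arrays and 69.0, 111.9 and 145.9 on the WT arrays. The arrays without Il10 were above those with it in batches 1 and 2 and below them in batch 3, and the groups overlapped.

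**Figure D2:**
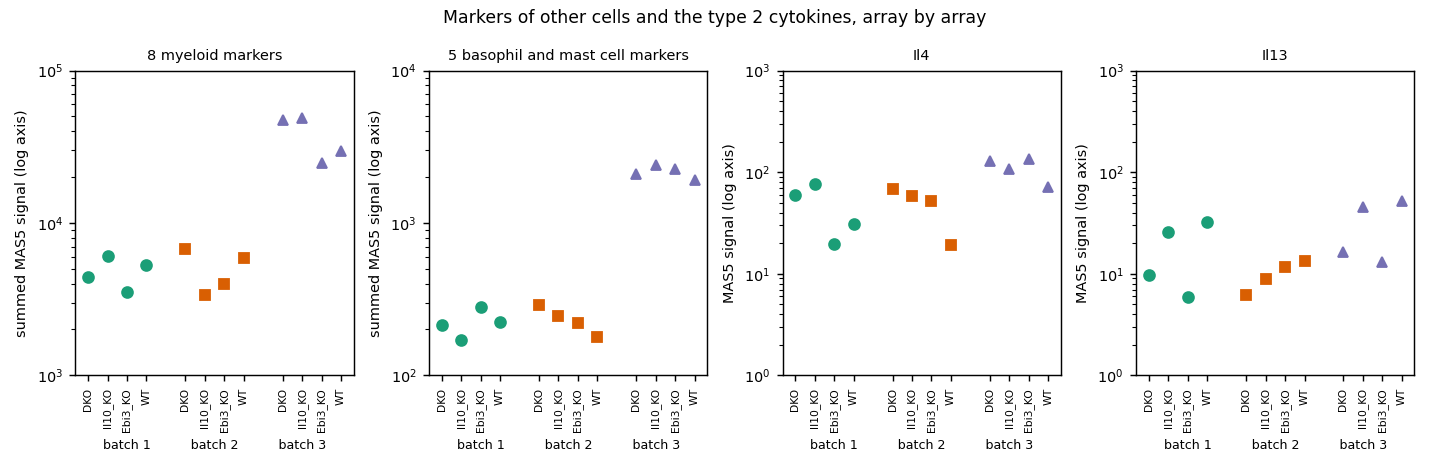
Summed MAS5 signal (log axis) of 8 myeloid markers and of 5 basophil and mast cell markers, and MAS5 signal of Il4 and Il13, on the 12 arrays, ordered by batch and, within a batch, DKO, Il10_KO, Ebi3_KO and WT. Both marker sums are higher on all 4 arrays of batch 3 than on any other array, and Il4 has its highest value of each genotype there.

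The genotypes were compared with limma on log2(signal + 20), the scale of the deposited values, on which differences of low signals are understated. In these bulk samples, fewer cells making a cytokine and less RNA per cell cannot be told apart. No cytokine probe set passed an adjusted p of 0.05 in any contrast, with or without batch in the model. In DKO against WT 0 of 9 passed without batch, where 0.0096% of the 31235 tested probe sets did, and 0 with batch (0.0416%). In Il10_KO against WT it was 0 of 9 (background 0.0064% without batch, 0.0384% with batch), and in Ebi3_KO against WT 0 of 9 (0.0032% in both models). In DKO against Ebi3_KO it was 0 (0.0064% and 0.0192%) and in DKO against Il10_KO 0 (0.0032% in both). At an unadjusted p under 0.05 the limma fit without batch found 3 of 9 higher in DKO than in WT (1.18% of all tested), 3 higher in Il10_KO (1.2%), both times Ifng, Csf2 and the Il22 and Iltifb probe set, and 0 in Ebi3_KO (0.589%). In that fit 1 was higher in DKO than in Ebi3_KO, namely Csf2 (0.912%), and 0 differed between DKO and Il10_KO (1.24%).

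In DKO against WT, Ifng lay higher by 1.73 ± 0.52 on the log2 scale (SE; limma adjusted p = 1.0; 0.137 with batch). The differences within batches 1, 2 and 3 were 2.37, 1.47 and 1.37. Csf2 was higher by 1.25 ± 0.45 (adjusted p = 0.38 with batch; 1.14, 1.70 and 0.93 within batches), and the Il22 and Iltifb probe set by 2.03 ± 0.87 (0.269 with batch; 3.92, 1.28 and 0.89). Il2 differed by 0.90 ± 0.43, Il4 by 0.84 ± 0.50, Tnf by 0.60 ± 0.33 and Lta by -0.32 ± 0.53, with an adjusted p of 0.488 or more with batch. In the model with batch 6 of 9 had an unadjusted p under 0.05 and were higher in DKO, where 4.37% of all tested were: Ifng, Csf2, Il2, Il4, Tnf and the Il22 and Iltifb probe set. In 3 of 9, Ifng, Csf2 and Il2, the DKO and WT arrays did not overlap (3.2% of all tested).

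Il10_KO against WT gave values of like size with the same WT arrays. Ifng was higher by 1.69 ± 0.52 (limma adjusted p = 1.0; 0.224 with batch) and by 2.95, 1.10 and 1.01 within batches 1, 2 and 3. Csf2 was higher by 1.22 ± 0.45 (0.443 with batch; 1.80, 0.71 and 1.16) and the Il22 and Iltifb probe set by 2.00 ± 0.87 (0.339 with batch; 3.91, 1.21 and 0.87). In the fit with batch 4 of 9 had an unadjusted p under 0.05 and were higher, these 3 and Il4 (0.81 ± 0.50), against 4.08% of all tested. Lta alone was lower at that level (-0.51 ± 0.53; 3.6% of all tested were lower). Ifng, Csf2 and Il2, 3 of 9, did not overlap between Il10_KO and WT (3.14% of all tested).

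In both comparisons WT replicate 1 set much of the size. Without it the Ifng difference was 1.06 in DKO and 1.02 in Il10_KO, and that of the Il22 and Iltifb probe set 1.27 in DKO and 1.24 in Il10_KO. Csf2 was less affected, at 0.92 in DKO and 0.89 in Il10_KO. Lta differed by 0.037 in DKO and -0.16 in Il10_KO without it.

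WT replicate 1 was the array with the lowest immediate-early signal. Against WT, 18 of the 19 immediate-early genes lay above 0 in DKO, in Il10_KO and in Ebi3_KO, with medians of 0.80, 0.86 and 0.65. Of all tested probe sets 51.2%, 49.9% and 45.7% lay above 0, and 0 of the 19 were called. These comparisons share the WT arrays, and the list was chosen after the data were seen. The mean log2 value of the 19 in batch 1 was 12.677, 12.663 and 12.621 in DKO, Il10_KO and Ebi3_KO, against 10.57 in WT. In batch 2 it was 12.347, 12.422 and 12.715 against 12.365, and in batch 3 11.848, 12.012 and 11.675 against 11.684. For the average difference by Il10 genotype 15 of 19 lay above 0, with a median of 0.40, where 53.7% of all tested lay above 0. Atf3, a stress-induced transcription factor, differed by 1.64 ± 0.60 and Btg2 by 0.64 ± 0.28 (limma adjusted p = 0.402 and 0.314 with batch). Their part in the cytokine values was not tested.

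In Ebi3_KO against the same WT arrays the differences of Ifng, Csf2 and the Il22 and Iltifb probe set were smaller than those of DKO and Il10_KO. Ifng was higher by 1.04 ± 0.52 (limma adjusted p = 1.0; 0.91 with batch), but by 2.55 in batch 1 and by 0.16 and 0.41 in batches 2 and 3. Without WT replicate 1 the difference was 0.37. Csf2 differed by 0.16 ± 0.45 (0.22, 0.26 and -0.017 within batches) and Tnf by 0.057 ± 0.33; without WT replicate 1 these were -0.18 and 0.28, and without batch 3 they were 0.24 and -0.083. The Il22 and Iltifb probe set read 0.88 ± 0.87 (2.31, 0.60 and -0.27), and 0.12 without WT replicate 1 or 1.45 without batch 3. Il2 was higher in each batch, by 0.43, 1.63 and 0.34. With batch in the model Ifng and Il2, 2 of 9, had an unadjusted p under 0.05 and were higher (2.24% of all tested), and no cytokine had Ebi3_KO and WT arrays without overlap in the higher direction (1.96% of all tested).

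**Figure D3:**
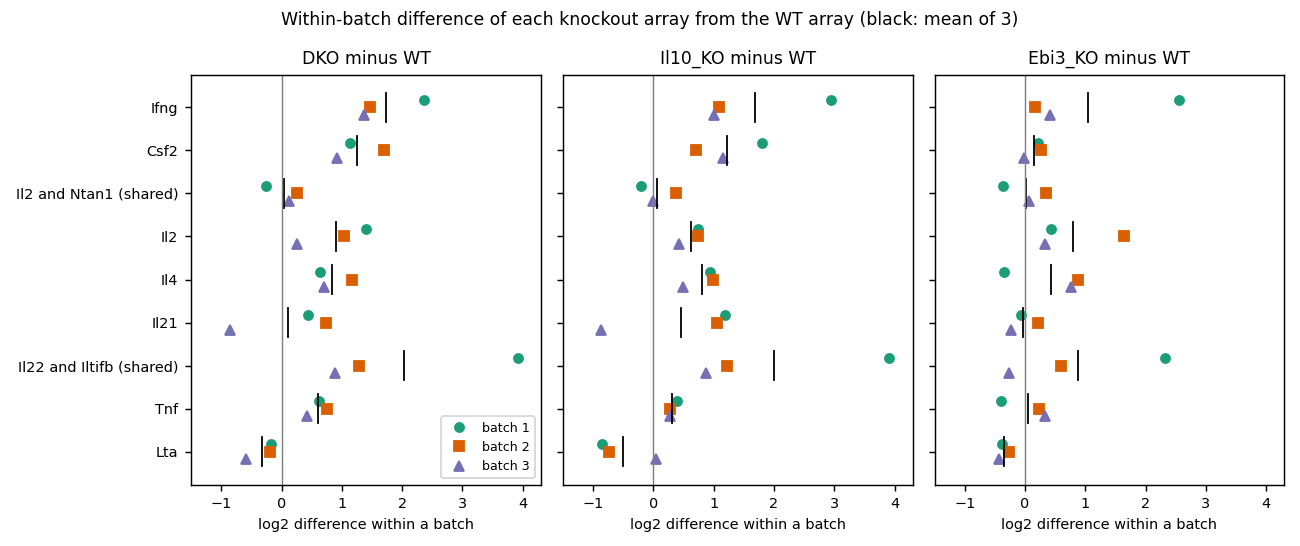
Log2 difference of the DKO, Il10_KO and Ebi3_KO array from the WT array of the same batch, for the 9 tested probe sets, with batches 1, 2 and 3 as circles, squares and triangles and a black line at their mean. Ifng and Csf2 lie to the right of 0 in all 3 batches for DKO and Il10_KO, and the largest differences of Ifng and of the Il22 and Iltifb probe set are those of batch 1.

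DKO was also set against each single knockout. Against Ebi3_KO, which asks what the loss of Il10 adds where Ebi3 is already missing, Csf2 was higher by 1.10 ± 0.45 (limma adjusted p = 1.0; 0.935 with batch), in all 3 batches (0.92, 1.44 and 0.94). The Il22 and Iltifb probe set was higher by 1.15 ± 0.87 (1.60, 0.69 and 1.16) and Tnf by 0.55 ± 0.33 (1.03, 0.52 and 0.092). Ifng was higher in batches 2 and 3 but not in batch 1 (-0.18, 1.30 and 0.95; 0.69 ± 0.52 over all). Leaving out 1 array at a time, with or without batch in the model, moved the difference of Csf2 between 0.76 and 1.49 and that of Tnf between 0.30 and 0.80. The same moved Ifng between 0.31 (without DKO replicate 2) and 1.13 (without Ebi3_KO replicate 1), and the Il22 and Iltifb probe set between 0.53 (without Ebi3_KO replicate 3) and 1.81 (without Ebi3_KO replicate 2). Against Il10_KO the differences of Ifng (0.049 ± 0.52), Csf2 (0.033 ± 0.45) and the Il22 and Iltifb probe set (0.030 ± 0.87) were far smaller than their errors. Tnf was higher in DKO than in Il10_KO in each batch (0.23, 0.48 and 0.15; 0.29 ± 0.33).

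The average Il10 difference sets the 6 DKO and Il10_KO arrays against the 6 Ebi3_KO and WT arrays. Without batch in the model 0 of 9 cytokine probe sets passed (0.0128% of all tested did), and with it 0 of 9 (0.064%); at an unadjusted p under 0.05 the fit without batch found 3 of 9 higher, Ifng, Csf2 and the Il22 and Iltifb probe set (1.37% of all tested). Ifng differed by 1.19 ± 0.37 (limma adjusted p = 1.0), and by 1.39, 1.20 and 0.98 within the batches. With batch in the model its SE was 0.25 and its adjusted p 0.181. Csf2 differed by 1.16 ± 0.32, and by 1.36, 1.07 and 1.05 within the batches, with an SE of 0.24 and an adjusted p of 0.181 in the model with batch. The Il22 and Iltifb probe set differed by 1.57 ± 0.61 (2.76, 0.95 and 1.01 within the batches; 0.211 with batch).

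Among the rest, Il4 differed by 0.61 ± 0.36, Tnf by 0.43 ± 0.23, Il2 by 0.37 ± 0.30, Il21 by 0.30 ± 0.33 and Lta by -0.24 ± 0.37. Il21 depended on the arrays used, at 0.82 without batch 3 and 0.175 without WT replicate 1, and Lta was at -0.059 without WT replicate 1. With batch in the model 5 of 9 had an unadjusted p under 0.05 and were higher in the arrays without Il10, against 4.98% of all tested: Ifng, Csf2, Il4, Tnf and the Il22 and Iltifb probe set. In 0 of 9 did the 6 arrays without Il10 and the 6 with it stay wholly apart (0.128% of all tested did so in the higher direction). Leaving out 1 array at a time moved the Ifng difference between 0.85 and 1.44 and that of Csf2 between 0.99 and 1.36 in the model without batch.

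2 of these values passed when batch was in the model and 1 array was left out. Ifng had an adjusted p of 0.0466 without Ebi3_KO replicate 1, and the Il22 and Iltifb probe set 0.0445 without WT replicate 1. Over the 12 arrays left out in turn with batch in the model, the adjusted p of Ifng ran up to 0.478 and that of the Il22 and Iltifb probe set up to 0.47.

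The average Ebi3 difference, of the 6 DKO and Ebi3_KO arrays against the 6 Il10_KO and WT arrays, was 0.55 ± 0.37 for Ifng, 0.53 ± 0.30 for Il2 and 0.094 ± 0.32 for Csf2. It was called in 0 of 9 by limma (0.0032% of all tested without batch, 0.0064% with it), and 0 of 9 had an unadjusted p under 0.05 without batch (1.38% of all tested). In the model with batch Ifng and Il2, 2 of 9, had an unadjusted p under 0.05 (1.97% of all tested were higher at that level). The interaction, which asks whether the DKO value departs from the sum of the single knockouts, was -0.99 ± 0.73 for Ifng and -0.12 ± 0.64 for Csf2, with 0 of 9 called (0% of all tested in both models) and 0 at an unadjusted p under 0.05 (1.28% of all tested without batch). Without WT replicate 1 the Ifng values were 0.21 for the average Ebi3 difference and -0.32 for the interaction, and those of Csf2 were -0.073 and 0.21.

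**Figure D4:**
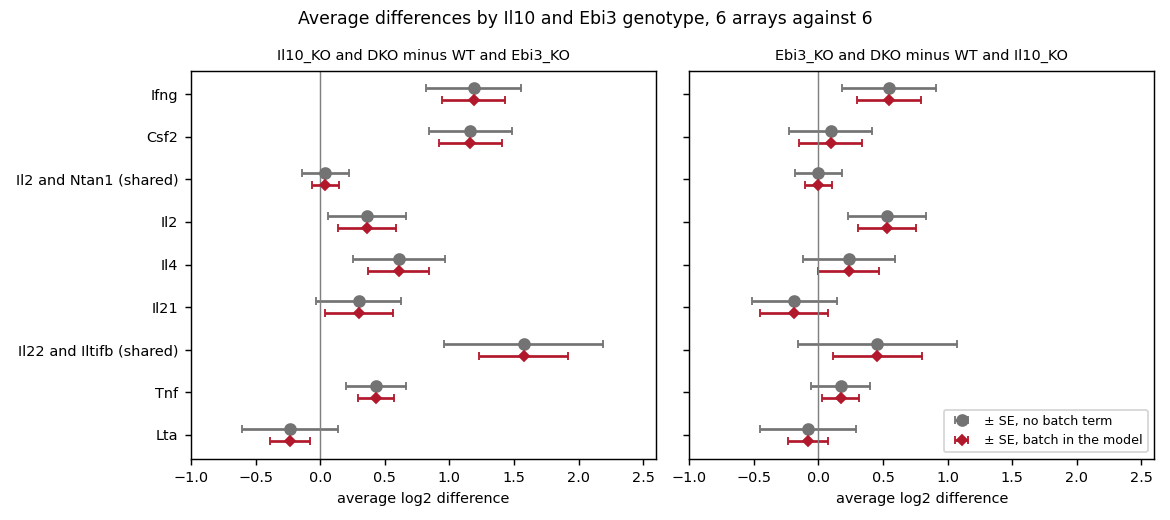
Average log2 difference by Il10 genotype (left) and by Ebi3 genotype (right) for the 9 tested probe sets, as the estimate ± SE from the model without batch (grey circles) and with batch (red diamonds). Ifng, Csf2 and the Il22 and Iltifb probe set lie farthest from 0 on the left, at 1.19, 1.16 and 1.57, and none passed the adjusted threshold.

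The order of the 4 arrays within each batch was also counted, with no model. Both arrays without Il10 were above both arrays with it in every batch for 2 of 9 probe sets, Csf2 and the Il22 and Iltifb probe set, against 1.08% of all tested. With batch 3 left aside it held for 5 of 9, with Il4, Il21 and Tnf added (4.76%). WT was lowest of the 4 in every batch for Ifng and Il2, 2 of 9 (2.12%), and with batch 1 left aside for 4 of 9, with Il4 and Tnf added (6.52%). DKO was highest in every batch for Tnf and the Il22 and Iltifb probe set (2.12%).

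More of these probe sets passed for batch than for genotype. The F test for any genotype called 0 of the 9 (0.0096% of all tested), and 0 with batch in the model (0.0416%). The F test for batch called 6 of 9, against 41.8% of all tested: Lta (adjusted p = 0.00027), the Il22 and Iltifb probe set (0.0041), the probe set shared by Ntan1 and Il2 (0.0075), Il4 (0.0174), Tnf (0.0186) and Ifng (0.0279). Csf2 (0.0581), Il2 (0.0804) and Il21 (0.156) did not pass. Ifng was highest in batch 2 for DKO, Il10_KO and WT, and Tnf was highest in batch 1 for the same 3 genotypes.

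Markers of CD8 T and NK cells, which also make interferon gamma, were read beside Ifng. Of 13 such genes tested, 11 had an average Il10 difference above 0, with a median of 0.33, where the median of all tested probe sets was 0.022 and 53.7% lay above 0; limma called 0 of the 13 in either model, and 6 were higher at an unadjusted p under 0.05 with batch (4.98% of all tested were). Klrk1, an activating receptor, differed by 1.00 ± 0.43 and Klrd1, a chain of an NK receptor, by 0.62 ± 0.63. The summed signal of the 13 was 2891.2 to 10271.3 in DKO, 3225.0 to 10116.6 in Il10_KO, 2312.0 to 5256.0 in Ebi3_KO and 2480.5 to 8647.1 in WT. Among the defining markers, Cd8a read 97.0 to 405.1, on both sides of the background ceiling used for the cytokines. Ncr1 read 11.1 to 135.8, under that ceiling on every array. The sum was highest in batch 3 in each genotype, at 5256.0 to 10271.3. It was 2312.0 to 3463.5 in batch 2 and 2721.5 to 3475.8 in batch 1. The part of such cells in the Ifng result was not tested.

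Myeloid markers lay above 0 in 7 of 7 tested for the same difference, with a median of 0.36, 0 called and 3 higher at an unadjusted p under 0.05 with batch, against the same 4.98%. Their sum was 4440.9 to 47121.4 in DKO, 3345.8 to 48871.8 in Il10_KO, 3525.4 to 24823.8 in Ebi3_KO and 5330.5 to 29863.7 in WT. With the 4 arrays of batch 3 left out, the average Il10 difference was 1.29 for Ifng, 1.22 for Csf2 and 1.85 for the Il22 and Iltifb probe set. On all arrays it was 1.19, 1.16 and 1.57. The part of myeloid cells in these values was not tested. Treg markers differed little, with 5 of 7 above 0 and a median of 0.089. Of 4 markers of conventional CD4 T cells tested 1 lay above 0, with a median of -0.11. Of 5 B cell markers 4 lay above 0 (median 0.14), of 5 dendritic cell markers 4 (0.19) and of 5 basophil and mast cell markers 3 (0.081). In these lists 0 were called in either model, and 53.7% of all tested probe sets lay above 0.

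The genes around the cytokines were read from lists of their receptors, regulators and targets, chosen with earlier results of these data known. Of 16 receptor genes tested, 10 had an average Il10 difference above 0, with a median of 0.11 and 0 called in either model. Ifngr1, the ligand-binding chain of the interferon gamma receptor, differed by 0.32 ± 0.17, and Csf2ra, the GM-CSF receptor chain, by 0.28 ± 0.42. Of 30 regulators 18 lay above 0, with a median of 0.056 and 0 called. Il18r1, a chain of the receptor for IL-18, which drives Ifng in T cells, differed by 0.82 ± 0.29 (adjusted p = 0.153 with batch) and Runx3, a factor that acts at Ifng, by 0.58 ± 0.17 (0.309 with batch). Il18r1 lies on chromosome 1, the chromosome of Il10, as do Atf3 and Btg2 named above. The part of that shared chromosome in their differences by Il10 genotype was not tested.

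Targets of interferon gamma did not follow Ifng in a single direction. For the average Il10 difference 11 of 16 lay above 0, with a median of 0.12 and 0 called. Irf1, an early target, differed by 0.27 ± 0.15 and the chemokine Cxcl9 by 0.52 ± 0.80. Against WT, where the same 3 WT arrays are used, 6 of 16 lay above 0 in DKO with a median of -0.24, 11 of 16 in Il10_KO with a median of 0.12 and 5 of 16 in Ebi3_KO with a median of -0.30, and 0 were called in each. In the fit with batch 4 were lower in DKO (3.88% of all tested), 5 higher in Il10_KO (4.08%) and 5 lower in Ebi3_KO (3.07%) at an unadjusted p under 0.05. The medians of all tested probe sets were 0.0092, -0.0006 and -0.028 for DKO, Il10_KO and Ebi3_KO against WT.

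Of 11 targets of TNF, 8 lay above 0, with a median of 0.15 and 0 called. Cxcl1, a chemokine for neutrophils, differed by 0.79 ± 0.38 and Tnfaip2, induced by TNF, by 0.50 ± 0.62. Of 10 targets of IL-2 and STAT5, 4 lay above 0, with a median of -0.018 and 0 called. Ccnd2, a cyclin, differed by -0.38 ± 0.18 and Lif, a cytokine of the IL-6 family, by 0.54 ± 0.41.

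Of 16 other T cell cytokines and chemokines tested, 13 lay above 0, with a median of 0.27. Ccl5, a chemokine that draws T cells, was the single gene of these lists that passed for the average Il10 difference, and only with batch in the model. It differed by 0.69, with an SE of 0.46 without batch and of 0.10 with it (adjusted p = 0.0274), and by 0.84, 0.43 and 0.80 within batches 1, 2 and 3. Tnfsf14, a TNF family ligand, differed by 0.48 ± 0.35 and did not pass.

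**Figure D5:**
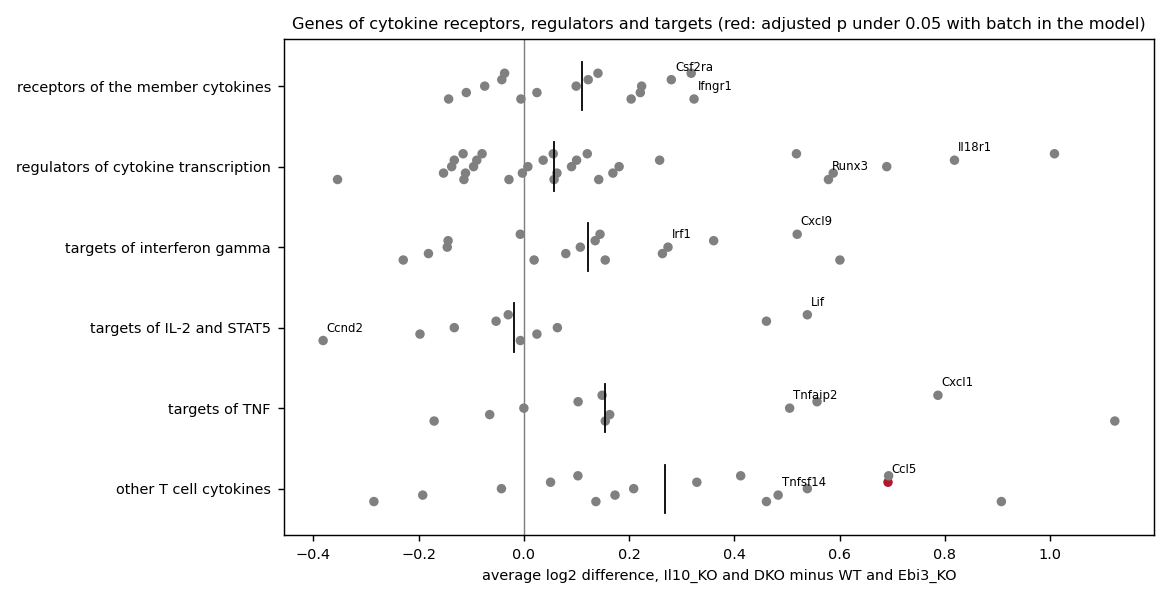
Average log2 difference by Il10 genotype (DKO and Il10_KO minus Ebi3_KO and WT) of each tested gene in 6 lists around the cytokines, with a black line at the median of each list. Ccl5, in red, is the only gene that passed with batch in the model; the medians run between -0.018 for targets of IL-2 and STAT5 and 0.27 for other T cell cytokines.

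The genes most like Ifng across the 12 arrays were found by Pearson's r of log2 values after the mean of each batch was removed. The 5 highest were Zbtb21 (0.978), Ythdf3 (0.968), Btg2 (0.966), Cass4 (0.958) and Fndc3b (0.954). Zbtb21, a zinc finger factor, read 1225.8 ± 702.6 in DKO, 1202.5 ± 717.6 in Il10_KO, 910.9 ± 551.8 in Ebi3_KO and 545.5 ± 367.4 in WT. Btg2, an antiproliferative gene of the immediate-early response, read 4651.2 ± 1671.9 in DKO, 4923.6 ± 1957.8 in Il10_KO, 3846.3 ± 2376.3 in Ebi3_KO and 2498.1 ± 29.8 in WT. Among the cytokines, Ifng was most like the Il22 and Iltifb probe set (r = 0.895) and Csf2 (0.774). WT replicate 1 was the lowest of the 12 arrays for each of these. It read 307.3 for Ifng, 1.4 for the Il22 and Iltifb probe set and 8.8 for Csf2. The r values were not computed without that array, so how far they rest on it is not known.

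For Csf2 the 5 highest were Prkci (0.961), Tmem176a (0.955), Acpp (0.949), Stom (0.933) and Zswim4 (0.924). Tmem176a, a membrane protein gene, read 1222.7 ± 82.9 in DKO, 1233.7 ± 187.1 in Il10_KO, 689.3 ± 56.5 in Ebi3_KO and 579.8 ± 69.9 in WT. All these points share the same 12 arrays and their genotypes, and the highest of so many correlations are high by selection.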

How the data were processed

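The authors deposited 1 table of natural log values. Their exponent minus 20 gives MAS5 signals that are multiples of 0.1 below 200 and have the same trimmed mean (2% off each end) on each array. MAS5 and Partek 6.4 are named per the submitters' processing notes. Total RNA was extracted on Qiagen columns and biotin was added in 2 rounds of Affymetrix labelling, per the labels' protocols. The values were turned into log2 with no further normalization. Median signals were 59.3 to 89.1 and, with arrays, the number of arrays limits the precision.

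The 64 control probe sets and 13802 of low signal were left out, and 31235 were fitted with limma 3.58.1 in R 4.3.3 (lmFit, eBayes with trend; Benjamini-Hochberg, threshold 0.05), with 4 genotypes and 8 residual degrees of freedom. Batch as a factor (6 degrees) was the main alternative. Of probe sets with 1 symbol, 34741 of 34945 matched RefSeq by gene identifier. Lists take the probe set of highest mean signal per gene. Genes named outside the cytokines are those of each list called in any contrast, otherwise the 2 of smallest p for the average Il10 difference with batch, and the 5 most like Ifng and Csf2; Ms4a2, Cd8a and Ncr1 were named as defining markers after their values were seen. Members and lists were chosen with earlier results of these data known.

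The numbers pair the arrays, since the labels give them as batches. After genotype means were removed, same-numbered arrays correlated at 0.325 to 0.664 (18 pairs). Arrays of different number and different genotype correlated at -0.531 to -0.0204 (36 pairs). Removing the means forces part of this contrast in sign, so it is no separate support for the pairing. On simulated data for the average Il10 difference over 31235 probe sets, 39% of log2 changes of 1 and 84% of 2 were recovered without batch, with 0 false calls, and 81% and 96% with batch, with 7 false calls. For Il10_KO against WT it was 6% and 72% without batch, with 0 false calls, and 57% and 93% with batch, with 10. Changes were put only into tested probe sets with a mean log2 value above the median, and the noise came from the model with batch. The shares need not hold for weaker probe sets such as Csf2 and Il4. These lay at percentiles 46.6 and 49.2 of mean log2 value over all probe sets.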

Additional observations from a re-analysis of the deposited data

How the results depend on the processing

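No cytokine difference passed without batch in the model, under any setting tried. With the replicate block, the pairing by batch, all probe sets called numbered 12 in Il10_KO against WT (2 without it), 13 in DKO against WT (3), 6 in DKO against Ebi3_KO (2), 20 for the average Il10 difference (4) and 2 for the average Ebi3 difference (1), with 0 cytokines among them. Without batch 3, chosen after seeing the data, the counts were 0 in Ebi3_KO, Il10_KO and DKO against WT and in DKO against each single knockout, 1 for the average Il10 and 3 for the average Ebi3 difference; with the block as well they were 2 in Ebi3_KO and 6 in DKO against WT, 2 in DKO against Il10_KO and 14 for the average Ebi3 difference. With the arrays of the 2 genotypes alone 0 were called in DKO against Ebi3_KO and 3 in DKO against Il10_KO.

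With arrays left out in turn, with or without the block, calls were 1 to 8 in Ebi3_KO, 2 to 7 in Il10_KO and 3 to 31 in DKO against WT, 2 to 7 in DKO against Ebi3_KO, 1 to 16 in DKO against Il10_KO, 2 to 33 and 1 to 32 for the average Il10 and Ebi3 differences and 0 to 1 for the interaction; cytokines called were 0 to 1 for the average Il10 difference and 0 elsewhere. Of 45 cytokine differences followed, 31 kept their sign under every setting that gave them a value, 32 to 34 settings each. Followed were all contrasts of Ifng, Csf2 and the Il22 and Iltifb probe set, and the average Il10 difference of the rest. Each knockout against WT was also followed, except for the probe set shared by Ntan1 and Il2. Of the others, Il2 in DKO against Ebi3_KO changed sign without batch and with 1 array left out (-0.29 to 0.60). Il2 in the average Ebi3 difference did not (0.28 to 0.73). The 31 and the sign changes below cover only those followed. With arrays left out, sign changes occurred in DKO against Il10_KO for Ifng (-0.33 to 0.40), Csf2 (-0.32 to 0.43) and the Il22 and Iltifb probe set (-0.58 to 0.65); in Ebi3_KO against WT for Csf2 (-0.18 to 0.46), Il21 (-0.31 to 0.39), Il4 (-0.082 to 0.90) and Tnf (-0.12 to 0.30); in DKO against WT for Il21 (-0.245 to 0.52) and Lta (-0.74 to 0.037); in the average Il10 difference for Lta (-0.45 to 0.0065) and the probe set shared by Ntan1 and Il2 (-0.082 to 0.14); in the average Ebi3 difference for Csf2 (-0.081 to 0.29); and in the interaction for Csf2 (-0.47 to 0.27) and the Il22 and Iltifb probe set (-1.65 to 0.023). The other reversals were DKO against Il10_KO for Ifng (-0.11 without batch 3, with and without the block) and the Il22 and Iltifb probe set (-0.0038 after quantile normalization), and Ebi3_KO against WT for Il21 (0.0029 after quantile normalization, 0.074 without batch 3) and Tnf (-0.083 without batch 3); the cause was not tested. Signals under the background ceiling limit what can be said of Csf2, Il4, Il5, Il13 and Il21.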
